A study of Mus musculus with 15 samples.

Results

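Dorsal root ganglia of miR-183 cluster knockout mice that had undergone spared nerve injury were compared with ganglia of naive knockout mice, across all genes. The comparison rests on 7 of the 15 libraries of the series, those whose genotype label reads Wnt1-Cre; mirflox/flox: 4 naive libraries, numbered 4, 5, 8 and 9 in the sample titles, and 3 injured ones, numbered 13, 19 and 21. Each library came from 1 animal number, aged 3 to 6 months, on a mixed background with C57bl6 prevailing, and held RNA of the lumbar ganglia 4 to 6. In spared nerve injury (SNI) the common peroneal and tibial branches of the left sciatic nerve were ligated and cut, and the sural branch was left intact. The time between surgery and tissue collection and the side of the ganglia are not stated by the labels, and no sham-operated group was analysed here. The other 8 libraries were controls of genotype Wnt1-Cre or wt (5 naive, 3 after SNI). Control naive 7, control SNI 18 and control SNI 23 were wt and the other controls Wnt1-Cre. Genotype was thus not balanced between control naive and control SNI libraries, and its part in the control values was not tested. Control values are given beside those of the knockouts where stated. Wnt1-Cre recombines floxed alleles in the neural crest lineage, which gives rise to the sensory neurons and to their satellite and Schwann cells but not to macrophages or blood vessels. The animal numbers ran from 948 to 956 in the injured and from 1054 to 1082 in the naive knockouts, so injury and that order cannot be told apart.

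The miR-183 cluster is a set of 3 microRNAs made from 1 short stretch of the genome and abundant in sensory cells, among them the neurons of the dorsal root ganglion. A microRNA pairs through its seed, bases 2 to 8 from the 5′ end, with messenger RNAs and lowers their stability and translation. When the peripheral axon of a sensory neuron is cut, the neuron enters an injury state: transcription factors such as Atf3 and Jun are induced, growth genes follow, some neuropeptides are switched on, and others, with channels and receptors of the resting state, are reduced. Macrophages and glia of the ganglion respond as well. The comparison asks which transcripts followed nerve injury in animals that lacked the cluster. The mature sequences removed in these mice are shown because their seeds, in capitals, are the bases through which they pair; all lie on the minus strand of chromosome 6 in GRCm38.p6 (RefSeq).
mmu-miR-183-5p, chr6:30169711-30169732: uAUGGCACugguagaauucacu
mmu-miR-96-5p, chr6:30169506-30169528: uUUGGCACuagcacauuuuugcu
mmu-miR-182-5p, chr6:30165962-30165986: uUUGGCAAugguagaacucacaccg
Counted from the 5′ end, the seeds of miR-183-5p and miR-96-5p differed by A2U, and those of miR-96-5p and miR-182-5p by C8A.

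The knockout libraries held 7589426 to 10289398 counts in the naive and 8075133 to 10822762 in the injured group, and library pairs within a group correlated across genes with Spearman coefficients of 0.986 to 0.993. The hairpin genes Mir183, Mir96 and Mir182 had 0 counts in all 7 knockout libraries. Over all 15 libraries they had 0, 1 and 2 counts, so the deletion itself could not be read. The reason for these low counts was not tested. The tissue label held against its markers: the sensory neuron genes Pou4f1 (100.1–134 CPM, counts per 1000000 of the TMM-scaled library, in naive, 103–122 in SNI) and Prph, which encodes peripherin (1413–1786 and 1524–1557 CPM), were high in every library. Xist was above 300 CPM in naive 8, naive 9 and SNI 19 and below 1 CPM in the other 4 libraries, so both groups held both patterns. Skeletal muscle markers summed to 251, 57.8, 417 and 76.5 CPM in naive 4, 5, 8 and 9 and to 1251, 294 and 2055 CPM in SNI 13, 19 and 21, and adipocyte markers to 881, 994, 846 and 814 CPM and to 1098, 2041 and 989 CPM. Muscle signal was thus highest in SNI 13 and 21, and the adipocyte sum in SNI 19. Scd1 had 128428 counts of the adipocyte list over all 15 libraries and the next member, Car3, 5120. The level of that sum is therefore mostly Scd1 and does not measure the amount of fat.

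Many genes differed between injured and naive knockout ganglia. Of 16976 genes tested, 1218 rose (7.17% of the genes tested) and 499 fell (2.94%) at a Benjamini-Hochberg adjusted p under 0.05 in edgeR's quasi-likelihood test on all 15 libraries; genes past that threshold are called below. The rises were also larger. The median log2 fold change was 0.65 among genes that rose and -0.54 among genes that fell, against -0.02 over all genes, and 319 genes rose more than 2-fold where 46 fell as much. Beyond 4-fold there were 110 genes that rose and 1 that fell. Every naive library lay below every injured one for 2822 genes (16.6%), and above for 2983 (17.6%).

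The number of calls followed the libraries in the fit. The 15-library fit shares 1 estimate of the spread among 4 groups, and the control SNI group was the most variable, with a median SD of log2 CPM of 0.307 against 0.143 in knockout naive and 0.153 in knockout SNI. Fitted on the 7 knockout libraries alone, 2467 of 16458 genes rose (15%) and 1971 fell (12%), and without control SNI 23 the counts were 2459 and 1950. The 7-library fit called 1180 of the 1218 genes that rose and 496 of the 499 that fell. In the other direction, leaving out SNI 19 from the 15-library fit left 480 and 107 genes, leaving out SNI 21 left 652 and 150, and leaving out naive 8 left 692 and 178. Leaving out naive 5 reduced the genes that fell to 250, naive 4 to 262 and naive 9 to 280. Calls made in all 7 of these reduced fits numbered 413 genes that rose and 70 that fell. With the Xist pattern as a term, 1161 rose and 445 fell.

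The steepest rises were those of the axotomy genes. Sprr1a encodes a small proline-rich protein induced in axotomised neurons and known to promote axon outgrowth (chr3:92483952-92485895, minus strand, GRCm38). Its transcript stood at 0.813, 0.892, 0.380 and 1.31 CPM in naive 4, 5, 8 and 9 and at 237, 427 and 364 CPM in SNI 13, 19 and 21. The groups were far apart, the lowest injured library lying above 200 CPM and the highest naive one near 1, a log2 fold change of 8.69 ± 0.29 (SE; edgeR adjusted p = 2.53e-11). Atf3, a stress-induced transcription factor that marks neurons with a cut axon (chr1:191170296-191218039, minus strand), went from 6.30, 7.24, 4.18 and 4.70 CPM to 179.7, 268 and 224 CPM. No naive library came near an injured one, and the rise was 39.7-fold (log2 5.31 ± 0.19, adjusted p = 2.53e-11). Ecel1, an endopeptidase-like protein induced by nerve damage, was at 0.813, 1.69, 0.190 and 0.131 CPM in the naive and 88.2, 104 and 123 CPM in the injured libraries (log2 7.14 ± 0.46, adjusted p = 2.96e-07). Its naive values differed among themselves by over 10 times, all below 2 CPM.

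Several genes were undetected in every naive knockout. Lipn, a lipase family member, had no count in the 4 naive libraries and 7.08, 11.6 and 10.6 CPM in the injured ones, at least 124-fold higher with 3 counts over the naive group as the floor (edgeR adjusted p = 6.02e-08). Anxa10, an annexin, likewise went from no count to 8.97, 15.1 and 5.60 CPM, at least 125-fold higher (adjusted p = 0.00032). Ucn, the corticotropin-family peptide urocortin, went from no count to 1.26, 2.18 and 3.60 CPM, at least 29.8-fold higher (adjusted p = 0.000157). These 3 genes were thus present in each injured animal and below detection in each naive one. A zero here limits the count of a library, not the presence of the transcript.

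Other genes in the steepest 20 had low naive levels. Lamb3, a laminin chain, was at 0.203, 0, 0.0950 and 0.261 CPM in naive and 2.401, 3.03 and 4.401 CPM in SNI libraries (log2 4.51 ± 0.63, adjusted p = 0.000237). Dsp, desmoplakin of cell junctions, went from 0.190–0.297 to 3.98–6.90 CPM (log2 4.43 ± 0.44, adjusted p = 7.05e-06), and Cyp26a1, which degrades retinoic acid, from 0–0.285 to 1.000–6.25 CPM (log2 4.47 ± 0.67, adjusted p = 0.000464). The steepest 20 were picked among called genes without overlap, so separate groups were a condition of the choice. Of these 3, Cyp26a1 varied most among the injured libraries, with SNI 19 highest. Acvr1c, an activin receptor, Tnfrsf8, a member of the TNF receptor superfamily, and Sectm1b rose by log2 4.01, 4.04 and 3.92. Every gene of the steepest 20 was called in each of the 7 fits that left out a library.

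**Figure D1:**
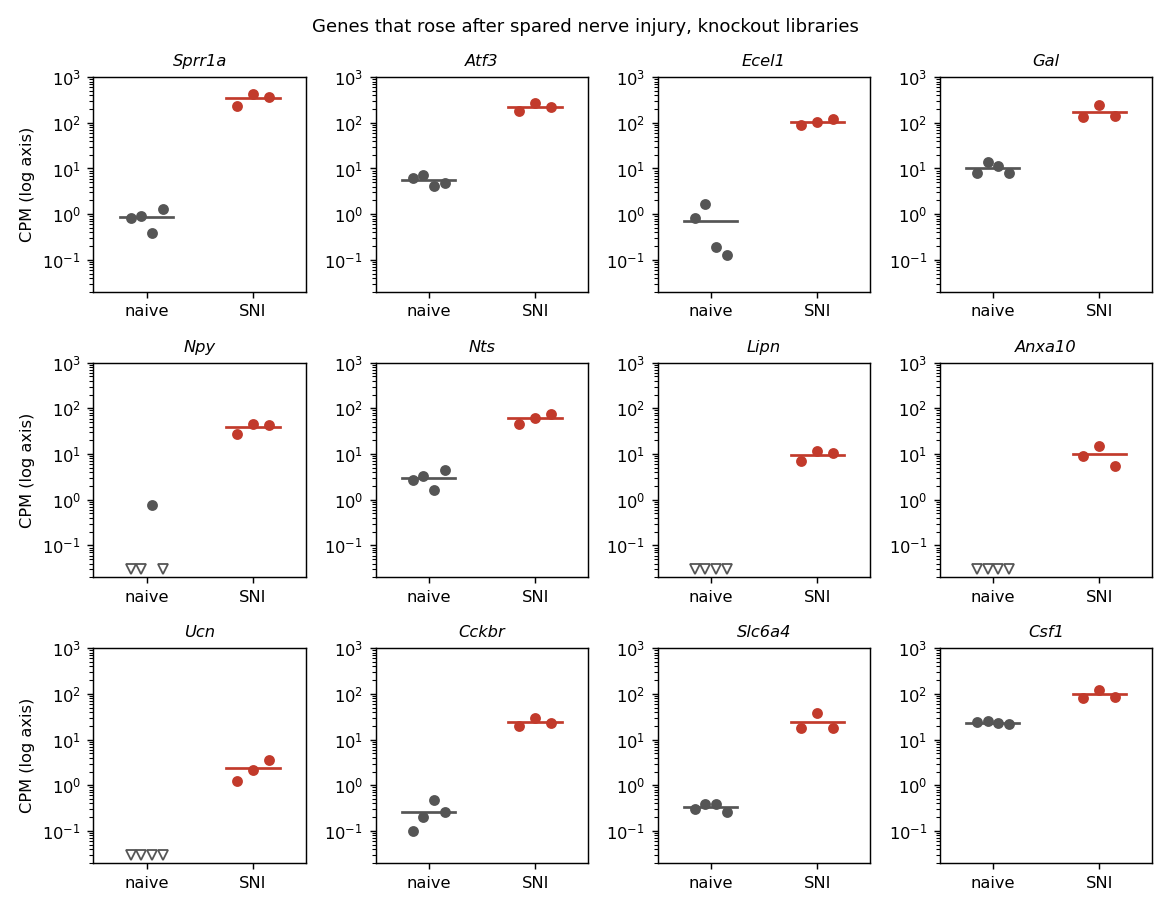
CPM by knockout library for 12 genes that rose (log axis, 1 point a library, line at the group mean); open triangles at the foot mark libraries with no count, and no mean line is drawn for a group that holds one. In every panel the 3 SNI libraries lie above the 4 naive ones, from Sprr1a, below 2 CPM in naive and above 200 CPM after injury, to Csf1, with naive libraries between 21.6 and 25.1 CPM.

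Promoter sequences of the steepest 20 were searched for 2 short motifs as a description: AP-1, TGANTCA, bound by Jun and Atf family dimers, and the cyclic AMP response element (CRE), TGACGTCA, on both strands. The 2 motifs do not contain each other. RefSeq held a promoter (250 bases before to 50 after the start, GRCm38.p6) for 19 of the 20 genes. AP-1 was found in 5 of them and CRE in 1, and over all 32851 promoters of this length AP-1 was present in 7.81% and CRE in 1.79%. A match is not a binding site, and no test was made. The sequences of 5 of these genes, 5′ to 3′ on the gene's strand with the match in capitals, show where the letters lie: 146 and 116 bases before the start in Sprr1a, 180 and 16 in Anxa10, 148 in Lipn, 207 in Nts (a neuropeptide gene described below) and, for CRE, 44 in Ucn.
Sprr1a promoter, chr3:92485832-92486131, minus strand: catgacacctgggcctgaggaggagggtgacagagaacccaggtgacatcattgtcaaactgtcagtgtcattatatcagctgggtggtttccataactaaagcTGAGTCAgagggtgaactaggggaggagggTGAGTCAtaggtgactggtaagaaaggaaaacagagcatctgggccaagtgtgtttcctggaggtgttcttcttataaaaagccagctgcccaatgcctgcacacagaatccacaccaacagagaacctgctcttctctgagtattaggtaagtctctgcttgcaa
Anxa10 promoter, chr8:62123144-62123443, minus strand: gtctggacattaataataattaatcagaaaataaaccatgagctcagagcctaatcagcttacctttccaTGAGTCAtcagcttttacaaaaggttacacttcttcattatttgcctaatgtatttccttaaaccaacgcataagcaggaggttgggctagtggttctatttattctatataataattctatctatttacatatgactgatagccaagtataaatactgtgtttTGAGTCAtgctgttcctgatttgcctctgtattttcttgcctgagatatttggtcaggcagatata
Lipn promoter, chr19:34067108-34067407, plus strand: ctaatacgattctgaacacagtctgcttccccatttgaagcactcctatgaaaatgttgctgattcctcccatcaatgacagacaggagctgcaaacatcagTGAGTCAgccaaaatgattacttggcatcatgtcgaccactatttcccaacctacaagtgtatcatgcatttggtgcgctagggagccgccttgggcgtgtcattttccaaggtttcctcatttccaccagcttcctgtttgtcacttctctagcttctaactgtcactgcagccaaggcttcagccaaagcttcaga
Nts promoter, chr10:102490369-102490668, minus strand: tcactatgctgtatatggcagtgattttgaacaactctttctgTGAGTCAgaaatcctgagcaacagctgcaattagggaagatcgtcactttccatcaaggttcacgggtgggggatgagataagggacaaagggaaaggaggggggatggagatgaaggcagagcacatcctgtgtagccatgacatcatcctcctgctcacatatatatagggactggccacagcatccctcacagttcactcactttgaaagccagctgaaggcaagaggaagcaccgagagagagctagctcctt
Ucn promoter, chr5:31138846-31139145, minus strand: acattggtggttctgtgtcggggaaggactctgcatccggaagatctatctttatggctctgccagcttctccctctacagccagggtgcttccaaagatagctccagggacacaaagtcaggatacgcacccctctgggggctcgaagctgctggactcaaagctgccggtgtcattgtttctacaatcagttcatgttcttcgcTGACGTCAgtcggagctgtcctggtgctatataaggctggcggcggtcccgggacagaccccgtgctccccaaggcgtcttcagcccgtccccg

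Of 24 transcription factors of the axon injury response, 11 were called higher (45.8%, against 7.17% of all genes) and none lower. The other 13 were not called, and the median log2 fold change was 0.43. Jun, which partners Atf3 at AP-1 sites, was at 33.8, 30.2, 31.9 and 38.01 CPM in naive and 76.97, 125 and 115 CPM in injured libraries. All injured values were at least 2 times the highest naive one (log2 1.66 ± 0.14, edgeR adjusted p = 7.25e-07). Sox11, a developmental factor re-expressed during regeneration, rose from 1.12, 1.49, 1.33 and 1.96 CPM to 6.57, 8.62 and 8.70 CPM (log2 2.45 ± 0.27, adjusted p = 2.3e-05), again without overlap. Nfil3, a repressor that acts on CREB target genes in injured neurons, rose by log2 1.65 ± 0.24 (adjusted p = 0.00043), and Smad1, a mediator of BMP signalling, by 0.87 ± 0.13 (adjusted p = 0.000438). Arid5a rose by log2 0.96 and the Krüppel-like factor Klf6 by 0.74. All 6 of these and Atf3 were called in each fit that left out a knockout library. Klf7 (log2 0.49) lost its call without naive 8, SNI 13 or SNI 19 (adjusted p from 0.0545 to 0.0658), Stat3 (log2 0.44, 274–361 to 394–459.6 CPM) without naive 4, naive 5, naive 8, SNI 13, SNI 19 or SNI 21 (adjusted p from 0.0679 to 0.182) and Creb5 (log2 0.98) without naive 4, naive 9, SNI 13 or SNI 19 (adjusted p from 0.0512 to 0.198). Over the list, 7 to 10 members were called higher in the fits without 1 library.

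Immediate early genes, which neurons switch on within minutes of activity or stress, were called higher in 5 of 23 and lower in none. The share called higher was 21.7%, against 7.17% of all genes, and the median log2 was 0.39. The 5 were Jun, Fosl2, Arc, Junb and Nr4a2. Apart from Jun their calls were weak. Fosl2 (log2 1.00 ± 0.22; 13.2–19.7 to 26.4–43.3 CPM) lost its call without SNI 19 (adjusted p = 0.0893), Arc (log2 0.91) without SNI 19 or SNI 21 (adjusted p from 0.0525 to 0.147), Junb (log2 0.66) without naive 4, naive 8, SNI 19 or SNI 21 (adjusted p from 0.0572 to 0.139) and Nr4a2 (log2 0.66) without naive 4, naive 5, naive 8, naive 9, SNI 19 or SNI 21 (adjusted p from 0.068 to 0.193). Without SNI 19, Jun alone of the list was called.

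Genes of axon growth and the growth cone were the list with the largest share called. Of 32 tested, 19 rose (59.4%, against 7.17% of all genes) and none fell (median log2 0.49). The 7-library fit called 27 higher (84.4%, against 15% of all genes) and 1 lower (3.13%, against 12%). Flrt3, an adhesion protein of growing axons, was at 12.9, 17.4, 13.6 and 14.5 CPM in naive and 70.5, 103 and 95.3 CPM in injured libraries. The lowest injured library was about 4 times the highest naive one (log2 2.62 ± 0.16, edgeR adjusted p = 2.82e-08). Tubb6, a beta tubulin induced in regenerating neurons, rose from 19.7, 21.3, 21.5 and 19.5 CPM to 80.9, 119 and 95.1 CPM (log2 2.26 ± 0.14, adjusted p = 3.21e-08), and Stmn4, a stathmin that regulates microtubules, from 13.8–17.5 to 56.7–67.9 CPM (log2 1.94 ± 0.13). Neither gene overlapped between groups. Gadd45a, a growth arrest and DNA damage gene induced by axotomy, rose by log2 1.70 ± 0.16 (adjusted p = 4.19e-06) and the integrin chain Itga7, a laminin receptor of regenerating neurons, by 1.38 ± 0.12 (adjusted p = 2.09e-06).

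Other growth genes also rose. Gap43, the growth-associated protein of axon terminals, was at 369, 353, 369 and 338 CPM in naive and 508, 627 and 572 CPM in SNI libraries, without overlap (log2 0.67 ± 0.11, edgeR adjusted p = 0.00121). Neuronal beta tubulin Tubb3 went from 2668–2964 to 3736–4444 CPM (log2 0.53, adjusted p = 0.00233) and the adhesion molecule Chl1 from 121–174 to 338–435 CPM (log2 1.40, adjusted p = 4.19e-06). Fscn1, the actin bundler fascin, rose by log2 1.14 and Plaur, the urokinase receptor, by 1.11; each was called in every fit without 1 library. Ncam1 (log2 0.69) lost its call without SNI 19 (adjusted p = 0.0649) and Cd44 (log2 0.48) without naive 4, naive 5, naive 8, naive 9, SNI 13 or SNI 19 (adjusted p from 0.0502 to 0.19). Tubulin genes are close copies of each other, so reads shared among them may have been assigned unevenly.

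Neuropeptide genes went in both directions, and 10 of the 19 tested were not called. Ucn, Npy, Nts, Crh, Gal and Vgf were the 6 that rose (31.6%, against 7.17% of all genes). Cartpt, Calcb and Scg2 were the 3 that fell (15.8%, against 2.94%). The median log2 fold change was -0.0013 (-0.02 over all genes). Gal, the peptide galanin, classically induced by axotomy, was at 8.03, 14.2, 11.5 and 7.84 CPM in naive and 135, 249 and 144 CPM in injured libraries. All injured values were at least 9 times the highest naive one, with SNI 19 above the other two (log2 4.08 ± 0.29, edgeR adjusted p = 9.2e-07). Npy, neuropeptide Y, had no count in naive 4, 5 and 9, 0.760 CPM in naive 8, and 28.1, 45.7 and 43.7 CPM after injury (log2 7.47 ± 0.56, adjusted p = 1.27e-06). Nts, neurotensin, rose from 2.64, 3.27, 1.62 and 4.44 CPM to 45.2, 60.3 and 76.2 CPM (log2 4.37 ± 0.36, adjusted p = 4.34e-06), with no overlap.

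Vgf, the precursor of several secreted peptides, was at 37.5, 59.1, 29.4 and 53.8 CPM in naive and 80.9, 194 and 148 CPM in SNI libraries. The groups were separate but each was broad (log2 1.65 ± 0.30, edgeR adjusted p = 0.00435). Crh, corticotropin-releasing hormone, was near the detection limit in naive libraries, at 0–0.198 CPM, and at 1.26–1.80 CPM in injured ones (adjusted p = 0.000148). Calca and Tac1, the precursors of calcitonin gene-related peptide and substance P in peptidergic nociceptors, were lower. Calca stood at 1351, 1494, 1300.4 and 1179 CPM in naive and 921, 812 and 801 CPM in injured libraries, and every injured value lay below every naive one. Its log2 fold change of -0.66 ± 0.23 did not pass the threshold in the 15-library fit (adjusted p = 0.0869) and did in the 7-library fit (adjusted p = 0.000243). Tac1 went from 214, 296, 224 and 194 CPM to 157, 99.1 and 121 CPM, also without overlap (log2 -0.89 ± 0.32, adjusted p = 0.0943 on 15 and 0.0155 on 7 libraries).

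Calcb, the second CGRP gene, was called lower (log2 -0.58 ± 0.17, edgeR adjusted p = 0.0388; 92.00–111 to 61.4–72.4 CPM), a call lost on leaving out any of the 7 libraries (adjusted p from 0.059 to 0.176). Cartpt, the precursor of CART peptide, fell from 6.201–9.31 to 2.50–4.36 CPM (log2 -1.14 ± 0.28) and lost its call without naive 8 or SNI 21 (adjusted p from 0.0648 to 0.103). Scg2, secretogranin of dense-core vesicles, was at 393–453 CPM in naive and 307–373 CPM in SNI libraries (log2 -0.36) and lost its call without naive 4, naive 5, naive 8, naive 9, SNI 19 or SNI 21 (adjusted p from 0.0582 to 0.187). The calls of these falls were less stable than those of the rises: the 6 genes that rose were called in each reduced fit, whereas 0 to 2 members were called lower.

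Receptors for these peptides included some of the steepest rises. Cckbr, a cholecystokinin receptor induced in axotomised neurons, was at 0.102, 0.198, 0.475 and 0.261 CPM in naive and 19.7, 29.9 and 23.3 CPM in injured libraries (log2 6.47 ± 0.39, edgeR adjusted p = 2.65e-08). Gpr151, an orphan receptor, rose from 1.02, 1.49, 0.855 and 1.57 CPM to 34.00, 46.3 and 35.8 CPM (log2 4.98 ± 0.26, adjusted p = 5.39e-09). Both genes were separated between the groups by more than 20 times. Of 24 receptors tested, 6 rose (25%, against 7.17% of all genes) and 1 fell (4.17%, against 2.94%), with a median log2 of 0.11. Cckar rose from 17.5–21.6 to 31.7–58.1 CPM (log2 1.14) and the somatostatin receptor Sstr1 from 0.595–1.18 to 2.70–3.69 CPM (log2 1.66). Npy1r, a receptor of neuropeptide Y, was called higher (log2 0.56) and lost the call without naive 4, naive 8, naive 9 or SNI 19 (adjusted p from 0.0504 to 0.182), and the bradykinin receptor Bdkrb2 (log2 1.07) did so without naive 4, naive 5, naive 8, SNI 19 or SNI 21 (adjusted p from 0.0755 to 0.337). Oprl1, the nociceptin receptor, fell from 27.3–34.6 to 21.6–24.8 CPM (log2 -0.48 ± 0.10) and lost the call without SNI 19 (adjusted p = 0.0587). Oprm1, the mu opioid receptor, was at 16.3–22.3 CPM in naive and 15.9–27.2 CPM in SNI libraries, which overlapped (log2 0.16 ± 0.19, adjusted p = 0.599).

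Growth factor and cytokine ligands rose in 9 of 20 tested genes (45%, against 7.17% of all genes) and fell in 1 (5%, against 2.94%). The median log2 was 0.48. Csf1, the cytokine with which injured neurons signal to macrophages and microglia, was at 24.2, 25.1, 22.7 and 21.6 CPM in naive and 80.3, 124 and 87.3 CPM in injured libraries. The naive values lay within 4 CPM of each other, and the lowest injured value was over 3 times the highest of them (log2 2.06 ± 0.14, edgeR adjusted p = 8.06e-08). Fgf3, a fibroblast growth factor, rose from 0.102, 0.694, 0.380 and 0.392 CPM to 7.204, 8.90 and 9.003 CPM (log2 4.37 ± 0.41), and Fst, the activin antagonist follistatin, from 2.24, 2.97, 2.09 and 1.04 CPM to 14.4, 23.7 and 14.7 CPM (log2 3.04 ± 0.29). The activin subunit gene Inhbb rose by log2 1.62 ± 0.18 (adjusted p = 2.3e-05) and Tgfb1 by 1.19 ± 0.21 (adjusted p = 0.00217).

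Vegfa, the vascular endothelial growth factor, was the ligand that fell, from 54.9, 52.7, 59.9 and 50.2 CPM to 38.9, 39.2 and 31.1 CPM. The 2 groups were separate and the call was made in each reduced fit (log2 -0.58 ± 0.12, edgeR adjusted p = 0.00649). Igf1 (log2 0.78) lost its call without SNI 19 (adjusted p = 0.0631), and Il34 (log2 0.37) without naive 4, naive 8, naive 9, SNI 19 or SNI 21 (adjusted p from 0.0515 to 0.171). Bdnf, brain-derived neurotrophic factor, was at 29.6, 33.8, 24.99 and 22.3 CPM in naive and 25.7, 41.1 and 30.7 CPM in injured libraries, which overlapped (log2 0.23 ± 0.26, adjusted p = 0.588).

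Among trophic factor receptors and their signalling partners 8 of 21 rose (38.1%, against 7.17% of all genes) and none fell (median log2 0.38). Of these, Csf1r and Cx3cr1 are also on the macrophage list (below), and they are 2 of the 4 members called in each fit without 1 knockout library. Gfra1, the GDNF co-receptor, was at 179, 154, 140.2 and 155 CPM in naive and 282, 464 and 331 CPM in injured libraries (log2 1.19 ± 0.17, edgeR adjusted p = 0.00025), and Gfra3, the artemin co-receptor, at 41.5–57.9 and 77.9–104 CPM (log2 0.87 ± 0.14, adjusted p = 0.000775). Both were free of overlap. Ntrk3, the neurotrophin-3 receptor TrkC of large-calibre neurons, rose by log2 0.61 and lost its call without naive 4, naive 8, naive 9, SNI 13 or SNI 19 (adjusted p from 0.0541 to 0.107). Socs3, the feedback inhibitor of interleukin-6 family signalling, rose by log2 0.98 and lost its call without SNI 19 (adjusted p = 0.0683). Met, the receptor of hepatocyte growth factor, rose by log2 0.86 and lost its call without SNI 19 or SNI 21 (adjusted p from 0.0607 to 0.108). Between 4 and 7 members were called in the fits without 1 library, fewest without SNI 19.

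**Figure D2:**
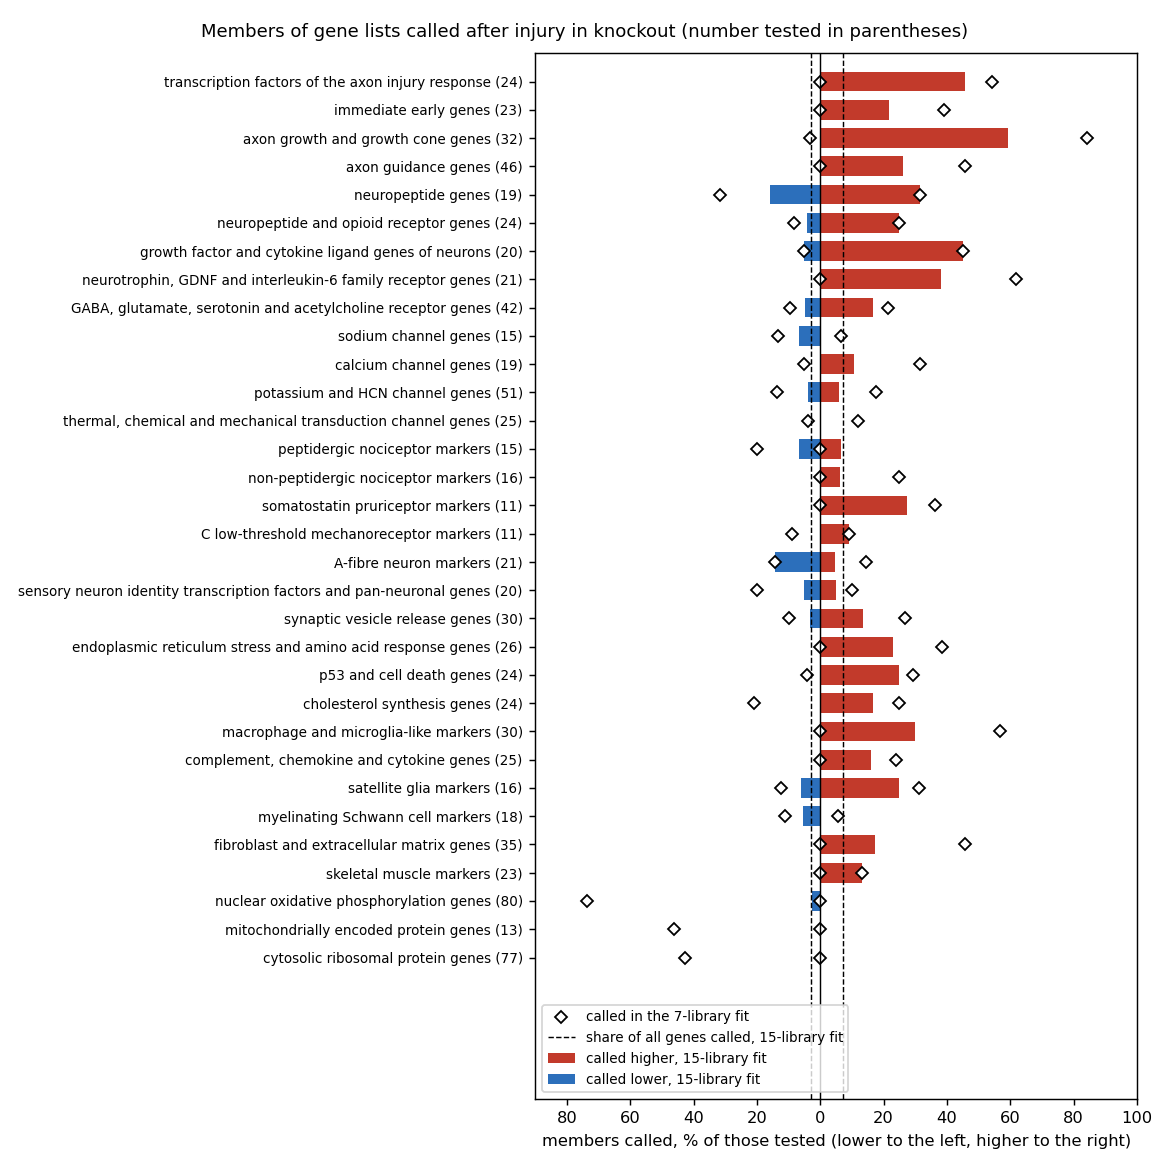
Share of the tested members of each gene list called higher (right) or lower (left) after injury in knockout; bars are the 15-library fit, diamonds the 7-library fit, and dashed lines the shares of all genes called in the 15-library fit, 7.17% higher and 2.94% lower. No line is drawn for the 7-library fit, where the shares of all genes called were 15% higher and 12% lower. Growth, injury transcription factor and trophic ligand genes have the longest bars to the right, and the diamonds lie farthest to the left for oxidative phosphorylation, mitochondrially encoded and ribosomal protein genes.

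Among ion channel genes, Cacna2d1, the calcium channel subunit bound by gabapentin, rose: it was at 324, 322, 318 and 268 CPM in naive and 602, 648 and 556 CPM in injured libraries. Every injured value was at least 1.7 times the highest naive one (log2 0.97 ± 0.09, edgeR adjusted p = 3.87e-06). Cacna2d2, its paralogue, was at 92.5, 107, 94.1 and 95.1 CPM and 105, 79.2 and 82.1 CPM, which overlapped (log2 -0.13 ± 0.14, adjusted p = 0.578). Of 19 calcium channel genes 2 were called higher (10.5%, against 7.17% of all genes). The other besides Cacna2d1 was the muscle channel Cacna1s (1.52, 0.595, 2.76 and 1.04 CPM and 6.45, 2.08 and 8.60 CPM). Cacna1s was highest in SNI 13 and 21, the libraries with most muscle signal, whose part was not tested. It lost its call without naive 4, naive 5, naive 9, SNI 13 or SNI 21 (adjusted p from 0.0897 to 0.207). Of 15 sodium channel genes 1 was called lower (6.67%, against 2.94% of all genes) and none higher. It was Scn1a of large-calibre neurons, which fell from 185–244 to 152–166 CPM (log2 -0.41 ± 0.11, adjusted p = 0.0266). Its call was lost without naive 4, naive 8, SNI 19 or SNI 21 (adjusted p from 0.0763 to 0.127).

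Potassium and HCN channel genes were called higher in 3 and lower in 2 of 51, close to the share over all genes. Kcnk16, a leak channel, was at 0, 0.0991, 0 and 0.392 CPM in naive and 3.79, 5.87 and 3.10 CPM in injured libraries (log2 5.17 ± 0.56, edgeR adjusted p = 1.66e-05). Kcnq3, a subunit of the M current that restrains firing, rose from 69.3–82.4 to 107–132 CPM (log2 0.73 ± 0.13, adjusted p = 0.00186). Kcnip1, which modulates A-type currents, fell from 22.99–29.2 to 16.00–19.7 CPM (log2 -0.61 ± 0.11, adjusted p = 0.00255). Kcnk1 was called lower (log2 -0.43) and lost the call without naive 4, naive 8, naive 9, SNI 13 or SNI 19 (adjusted p from 0.0502 to 0.111). None of 25 thermal, chemical and mechanical transduction channel genes was called in the 15-library fit. In the 7-library fit 3 were higher (P2rx3, Piezo1 and Tmem63b) and 1 was lower (Trpa1), 12% and 4%, against 15% and 12% of all genes. Trpv1, the capsaicin receptor, was at 156–207 CPM in naive and 121–168 CPM in SNI libraries (log2 -0.29 ± 0.13, adjusted p = 0.159).

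Transmitter receptor and transporter genes rose in 7 (16.7%, against 7.17% of all genes) and fell in 2 (4.76%, against 2.94%) of 42 (median log2 0.03). Slc6a4, the serotonin transporter, was below 0.5 CPM in each naive library and at 18.1, 37.8 and 18.3 CPM after injury (log2 6.13 ± 0.42, edgeR adjusted p = 1.26e-07). SNI 19 held about 2 times the level of SNI 13 and 21. Grik3, a kainate receptor subunit, rose from 21.04, 19.6, 16.4 and 19.98 CPM to 36.4, 46.5 and 35.8 CPM (log2 1.04 ± 0.17, adjusted p = 0.000841), Gabrg1, a GABA-A subunit, from 22.7–30.1 to 49.4–68.3 CPM (log2 1.07 ± 0.19, adjusted p = 0.00198), and Chrna5, a nicotinic subunit, from 0.0950–0.297 to 1.200–3.03 CPM (log2 3.13 ± 0.55, adjusted p = 0.00203). The groups were separate for each. Gria2, the AMPA receptor subunit that limits calcium entry, fell from 43.5, 41.1, 45.9 and 36.8 CPM to 32.6, 26.3 and 25.7 CPM (log2 -0.57 ± 0.11, adjusted p = 0.00529). Htr3a, an ionotropic serotonin receptor, fell from 122–150.2 to 73.3–112 CPM (log2 -0.65 ± 0.15) and lost the call without naive 8, SNI 19 or SNI 21 (adjusted p from 0.0539 to 0.0974). Htr1f (log2 0.51) lost its call without naive 4, naive 8, naive 9, SNI 13, SNI 19 or SNI 21 (adjusted p from 0.0691 to 0.161).

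Markers of the sensory neuron classes were read as lists. In a bulk sample fewer cells of a class and less RNA per cell cannot be told apart. Calb2, the calcium-binding protein calretinin of some A-fibre neurons, had the steepest fall of all called genes, from 3.35, 2.68, 2.76 and 3.79 CPM to 0.506, 0.947 and 0.5001 CPM. The highest injured library lay below 1 CPM and the lowest naive one above 2.5 (log2 -2.21 ± 0.30, edgeR adjusted p = 0.000163). Of 21 A-fibre markers 1 rose (4.76%, against 7.17% of all genes) and 3 fell (14.3%, against 2.94%), with a median log2 of -0.08. Ntrk3 was the rise and Calb2, Scn1a and Etv1 the falls. Etv1, a factor of proprioceptors (log2 -0.40), lost its call without naive 4, naive 5, naive 8, naive 9, SNI 19 or SNI 21 (adjusted p from 0.0709 to 0.229). Non-peptidergic nociceptor markers were called higher in 1 (6.25%, against 7.17% of all genes) and lower in none of 16. The former was the adrenoceptor Adra2a (log2 0.60), whose call was lost without naive 8, naive 9, SNI 19 or SNI 21 (adjusted p from 0.0675 to 0.127). Mrgprd, which defines these neurons, was at 91.7–123 CPM in naive and 134–156 CPM in SNI libraries, separate in value but past the threshold in the 7-library fit only (log2 0.44, adjusted p = 0.125 on 15 and 0.00394 on 7).

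Somatostatin pruriceptor markers were called higher in 3 of 11 (Nts, Il31ra and Htr1f). Il31ra, the itch cytokine receptor, was at 3.66, 8.63, 6.94 and 8.62 CPM in naive and 16.1, 15.9 and 10.7 CPM in SNI libraries (log2 1.03 ± 0.25, edgeR adjusted p = 0.0166), a call lost without naive 8 or SNI 19 (adjusted p from 0.0526 to 0.0922). Nppb, which defines the class, was at 3.46–9.27 CPM and 2.46–7.96 CPM, so the groups overlapped. Of 15 peptidergic nociceptor markers 1 was called higher and 1 lower (6.67% each, against 7.17% and 2.94% of all genes). The rise was Prokr2 (log2 0.78, groups overlapping, call lost without naive 5, naive 8, naive 9 or SNI 19 (adjusted p from 0.0627 to 0.295)) and the fall Calcb. In the 7-library fit none was higher and 3 were lower (Calca, Calcb and Tac1), 20% against 12% of all genes. The summed level of the 15 markers was 2384, 2662, 2366 and 2216 CPM in naive and 1854, 1701 and 1672 CPM in injured libraries, without overlap (exact permutation p = 0.0286, two-sided, the smallest that 4 against 3 allows). Calca, described above, had the most counts of the list and held most of the fall of the sum. Sums of many of the 44 lists reached the same p in that permutation test. Calcium channel, cholesterol synthesis, polyamine, cell death and extracellular matrix genes were among them. That p therefore does not single out the peptidergic list. Of 11 C low-threshold mechanoreceptor markers Cdkn1a alone was called, and it is also a p53 target (below). None of 6 markers of cold-sensing neurons was called.

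Pan-neuronal and identity genes were called higher in 1 and lower in 1 of 20 (5% each, against 7.17% and 2.94% of all genes). Elavl3, a neuronal RNA-binding protein, rose from 127, 119.6, 111 and 129.6 CPM to 174, 190.1 and 195 CPM (log2 0.61 ± 0.13, edgeR adjusted p = 0.00646). Isl1, a homeodomain factor that maintains sensory neuron identity, fell from 86.5, 88.9, 102 and 85.6 CPM to 73.8, 63.2 and 66.5 CPM, all injured values below all naive ones (log2 -0.42 ± 0.10, adjusted p = 0.0115), a call lost without naive 8, SNI 19 or SNI 21 (adjusted p from 0.0501 to 0.082). Genes of synaptic vesicle release were called higher in 4 and lower in 1 of 30 (13.3% and 3.33%). The synapsin gene Syn3 rose from 129–134 to 168–203 CPM (log2 0.52 ± 0.11, adjusted p = 0.00552), while Vamp1, a synaptobrevin, fell from 519–619 to 392–456 CPM (log2 -0.45 ± 0.10, adjusted p = 0.0116), a call lost without SNI 19 (adjusted p = 0.082). Bsn (log2 0.64) and Syn1 (log2 0.65) were called higher, and lost their calls without naive 8, SNI 13, SNI 19 or SNI 21 (adjusted p from 0.0544 to 0.1) and without naive 4, naive 5, naive 8, SNI 19 or SNI 21 (adjusted p from 0.0754 to 0.154).

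Stress and death genes rose in part. Of 24 p53 and cell death genes 6 rose (25%, against 7.17% of all genes) and none fell (median log2 0.17). Cdkn1a, the p53-induced cell cycle inhibitor, was at 64.2, 68.5, 62.2 and 69.8 CPM in naive and 116, 174 and 140.2 CPM in SNI libraries (log2 1.12 ± 0.13, edgeR adjusted p = 2.97e-05). Hrk, a BH3-only death gene of neurons, rose from 0.407, 1.29, 0.570 and 0.392 CPM to 5.81, 3.88 and 6.10 CPM (log2 2.93 ± 0.38, adjusted p = 0.000132), and Pmaip1, which encodes Noxa, from 1.05–1.44 to 3.60–5.49 CPM (log2 1.86 ± 0.23, adjusted p = 5.69e-05). None of these overlapped. Gadd45g rose by log2 0.84 and lost its call without SNI 19 (adjusted p = 0.0795), and Sarm1, the axon degeneration enzyme, by 0.52 and lost it without naive 4, naive 5, naive 8, SNI 19 or SNI 21 (adjusted p from 0.0837 to 0.218).

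Endoplasmic reticulum stress and amino acid response genes were called higher in 6 of 26 (23.1%, against 7.17% of all genes), with a median log2 of 0.22. The members called higher were of the amino acid branch rather than chaperones, with Hyou1 as the exception. That branch did not rise as a whole: Asns (log2 0.08), Phgdh (log2 0.03) and Atf4 (log2 0.20) were among its members not called. Slc7a5, the large neutral amino acid transporter, went from 39.8, 39.2, 34.4 and 45.2 CPM to 70.8, 92.4 and 82.7 CPM (log2 1.05 ± 0.14, edgeR adjusted p = 0.00015). It was the member called in every reduced fit. Trib3, a pseudokinase target of Atf4, rose by log2 1.01 and lost its call without naive 4, naive 8, SNI 19 or SNI 21 (adjusted p from 0.0509 to 0.0933), Chac1, a glutathione-degrading target of Atf4, by 1.13 and lost it without SNI 19 (adjusted p = 0.0609), Slc3a2 by 0.41 and lost it without SNI 19 or SNI 21 (adjusted p from 0.0601 to 0.074), Sesn2 by 0.62 with groups that overlapped and lost it without naive 4, naive 5, naive 8, naive 9, SNI 19 or SNI 21 (adjusted p from 0.0517 to 0.252), and Hyou1 by 0.48 and lost it without SNI 19 (adjusted p = 0.102). Hspa5, the chaperone BiP, was at 277–314 CPM and 292–349 CPM (log2 0.08 ± 0.09, adjusted p = 0.587), and Ddit3 at 25.4–32.2 CPM and 28.1–29.9 CPM (log2 0.02 ± 0.11, adjusted p = 0.92). The list's count ranged from 1 without SNI 19 to 8.

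Abca1, the cholesterol exporter, was among the abundant genes with the largest rise, from 92.9, 102, 90.95 and 85.3 CPM to 300.0, 416 and 279 CPM (log2 1.84 ± 0.13, edgeR adjusted p = 8.55e-08). Of 24 cholesterol synthesis genes 4 rose (16.7%, against 7.17% of all genes) and none fell in the 15-library fit (median log2 0.02). In the 7-library fit 6 were higher (25%, against 15% of all genes) and 5 lower (20.8%, against 12%), a mixed picture. Hsd17b7 rose from 80.98–94.5 to 121–197 CPM (log2 0.84 ± 0.13, adjusted p = 0.000596). Mvk (log2 0.30) lost its call on leaving out any of the 7 libraries (adjusted p from 0.0614 to 0.187). Arg2, an arginase, rose by log2 0.99 and lost its call without SNI 19 (adjusted p = 0.0537). None of 7 genes of tetrahydrobiopterin synthesis was called; Gch1, the rate-limiting enzyme of that pathway, was at 3.56, 3.87, 4.56 and 4.57 CPM in naive and 5.94, 6.53 and 5.80 CPM in injured libraries, without overlap (log2 0.56 ± 0.17, adjusted p = 0.0514 on 15 and 0.0275 on 7 libraries).

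Axon guidance genes rose in 12 of 46 (26.1%, against 7.17% of all genes) and fell in none (median log2 0.27). In the 7-library fit 21 rose (45.7%, against 15% of all genes) and 0 fell. Sema6a, a transmembrane semaphorin, was at 12.5, 12.99, 12.4 and 11.8 CPM in naive and 83.8, 145 and 116 CPM in injured libraries. The naive values were within 1.3 CPM of each other, and the lowest injured one was over 6 times the highest of them (log2 3.21 ± 0.20, edgeR adjusted p = 3.21e-08). Plxna4, a semaphorin receptor of sensory axons, rose from 80.4–112 to 166–253 CPM (log2 1.10 ± 0.18, adjusted p = 0.000925), Sema4f from 71.8–93.00 to 145–212 CPM (log2 1.06 ± 0.17), Ephb2 from 5.61–7.93 to 14.5–17.8 CPM (log2 1.26 ± 0.22) and Epha3 from 0.991–1.71 to 3.22–3.92 CPM (log2 1.34 ± 0.23). These 5 were called in each reduced fit. Slit1 (log2 0.90) lost its call without SNI 19 (adjusted p = 0.0618), the semaphorin receptor Nrp2 (log2 0.71) without naive 8 or SNI 19 (adjusted p from 0.0586 to 0.15), and the netrin gene Ntn1 (log2 1.01) without naive 8, naive 9, SNI 19 or SNI 21 (adjusted p from 0.0507 to 0.104). The count fell to 6 without SNI 19.

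Fibroblast and extracellular matrix genes rose in 6 of 35 (17.1%, against 7.17% of all genes) and fell in none (median log2 0.41). Mmp16, a membrane metalloproteinase, went from 8.23, 11.5, 11.5 and 12.4 CPM to 51.1, 58.99 and 41.4 CPM (log2 2.21 ± 0.16, edgeR adjusted p = 1.26e-07) and Loxl2, a collagen crosslinking enzyme, from 1.02, 0.694, 1.71 and 0.522 CPM to 5.06, 7.29 and 7.60 CPM (log2 2.71 ± 0.36, adjusted p = 0.00017). Groups were separate for both. Thbs2 rose by log2 1.04. Tnc, the tenascin of wounds, was at 3.66–4.36 CPM in naive and 5.94, 20.5 and 9.10 CPM in injured libraries (log2 1.58 ± 0.39), with SNI 19 far above the others, and lost its call without naive 8 or SNI 19 (adjusted p from 0.0564 to 0.166). Adamts1 (log2 0.99) lost its call without SNI 19 (adjusted p = 0.0896) and Fbn1 (log2 0.62) without naive 8, naive 9, SNI 19 or SNI 21 (adjusted p from 0.0588 to 0.19). The list's count ranged from 3 without SNI 19 to 11.

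Macrophage and microglia-like markers rose in 9 of 30 (30%, against 7.17% of all genes) and fell in none (median log2 0.67). Csf1r, the receptor of Csf1, was at 42.3, 37.7, 40.4 and 36.8 CPM in naive and 71.3, 83.9 and 71.3 CPM in SNI libraries (log2 0.94 ± 0.10, edgeR adjusted p = 1.01e-05). Cx3cr1, the fractalkine receptor, rose from 9.25, 6.44, 10.6 and 6.53 CPM to 16.6, 23.8 and 20.6 CPM (log2 1.30 ± 0.21, adjusted p = 0.000775), and Lgals3, a galectin, from 24.4–31.1 to 55.2–62.02 CPM (log2 1.11 ± 0.17, adjusted p = 0.000459). Mrc1, the mannose receptor, rose by log2 0.84. All 4 were without overlap and called in each reduced fit. C1qa (log2 0.81) lost its call without SNI 19 (adjusted p = 0.111), Mpeg1 (log2 0.95) without SNI 19 (adjusted p = 0.0731) and Trem2 (log2 1.00) without naive 4, naive 8, naive 9 or SNI 19 (adjusted p from 0.0601 to 0.156). Pan-macrophage genes did not all follow: Aif1 was at 17.1, 10.8, 7.89 and 6.53 CPM and 9.48, 6.72 and 5.50 CPM, and Tyrobp at 21.04, 12.4, 11.5 and 12.5 CPM and 16.3, 15.1 and 18.4 CPM, both overlapping, with naive 4 highest of the naive libraries. The list's count ranged from 4 without SNI 19 to 8, and its summed level was 713, 564, 548 and 547 CPM in naive and 765, 901 and 755 CPM in SNI libraries (exact permutation p = 0.0571).

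Complement, chemokine and cytokine genes were called higher in 4 of 25 (16%; Tgfb1, Tnfrsf12a, Il1r1 and the TNF receptor Tnfrsf1a, whose call was lost without naive 8 or SNI 19 (adjusted p from 0.0546 to 0.129)). Tnfrsf12a, the TWEAK receptor, which neurons also express after axotomy, rose from 3.86, 3.67, 4.66 and 4.18 CPM to 10.2, 13.1 and 12.9 CPM (log2 1.56 ± 0.20, edgeR adjusted p = 0.000103), and the interleukin-1 receptor Il1r1 from 10.2–13.3 to 25.9–30.5 CPM (log2 1.23 ± 0.16, adjusted p = 0.00015). Of 32 interferon and antigen presentation genes 1 was called higher and 1 lower (3.1% each, against 7.17% and 2.94% of all genes). The former, Cd74, the class II invariant chain, was at 62.8–76.5 CPM in naive and 83.8, 233 and 124 CPM in injured libraries, and its call (log2 1.09 ± 0.26) was lost without SNI 19 (adjusted p = 0.104). The latter, the interferon-induced gene Ifi35 (log2 -0.55), lost its call without naive 5, naive 8, naive 9, SNI 13, SNI 19 or SNI 21 (adjusted p from 0.0637 to 0.135). Lymphocyte, neutrophil and mast cell markers were called higher in 1 of 15 (6.67%, near the share of all genes) and lower in none. The former was the mast cell tryptase Tpsb2 (log2 1.20), whose call was lost without naive 5, naive 8, naive 9, SNI 13 or SNI 21 (adjusted p from 0.0525 to 0.101). Red blood cell markers were not called in any of 8.

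Of 16 satellite glia markers 4 rose (25%, against 7.17% of all genes) and 1 fell (median log2 0.30). Gfap, which satellite glia express when activated, was at 1.83, 1.88, 2.09 and 1.31 CPM in naive and 4.80, 10.4 and 6.70 CPM in injured libraries. All injured values exceeded all naive ones (log2 2.03 ± 0.42, edgeR adjusted p = 0.00712), but the call was lost without SNI 19 (adjusted p = 0.0535), as was that of glutamine synthetase Glul (log2 0.37) without SNI 19 (adjusted p = 0.0535). Lgi4 (log2 0.51), Vim (log2 0.45, groups overlapping) and S100b (log2 -0.42) lost theirs without naive 4, naive 5, naive 9, SNI 19 or SNI 21 (adjusted p from 0.0508 to 0.172), without naive 4, naive 5, naive 8, naive 9, SNI 19 or SNI 21 (adjusted p from 0.0668 to 0.295) and on leaving out any of the 7 libraries (adjusted p from 0.0679 to 0.142). Without SNI 19 none of the list was called. Of 18 myelinating Schwann cell markers 1 was called lower (5.56%, against 2.94% of all genes) and none higher. This marker, Ugt8a, an enzyme of myelin galactolipid synthesis, fell from 158, 140.2, 181 and 138 CPM to 53.8, 92.8 and 101 CPM, with SNI 13 lowest (log2 -0.90 ± 0.20, adjusted p = 0.0121). Mbp was at 2455, 2291, 2681 and 2309.6 CPM and 1295, 1986 and 2908 CPM. SNI 13 and 19 lay below the naive range and SNI 21 above it. Of 10 repair Schwann cell genes 2 rose (20%) and none fell, Gap43, which neurons also express (above), and Runx2. Runx2, a transcription factor, rose by log2 1.03 (2.64–5.75 to 8.62–9.48 CPM).

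Markers of tissue around the ganglion were uneven. Of 23 skeletal muscle markers tested 3 were called higher (median log2 2.14); Actn2 (log2 1.28) was called in each reduced fit. Ryr1 was at 2.64, 2.68, 4.56 and 1.44 CPM and 21.9, 4.64 and 38.9 CPM, and lost its call without SNI 21 (adjusted p = 0.0866); Pygm was at 10.98, 5.16, 11.7 and 5.62 CPM and 52.6, 14.5 and 82.2 CPM and lost it without naive 4, naive 5, naive 8, naive 9, SNI 13 or SNI 21 (adjusted p from 0.0642 to 0.156). Both were highest in SNI 21 and SNI 13, the libraries with the highest muscle sums, and the part of muscle tissue in these calls was not tested. Car3, an adipocyte and muscle carbonic anhydrase, rose from 8.54, 3.17, 14.8 and 2.87 CPM to 68.6, 173 and 79.02 CPM (log2 3.83 ± 0.55, edgeR adjusted p = 0.000881). The fat protein Fabp4 was at 2.61–5.42 CPM in naive libraries and at 2.78, 60.7 and 3.80 CPM in the injured ones, so it was high in SNI 19 alone. Of 15 endothelial markers 2 were called higher (13.3%, against 7.17% of all genes) and 1 lower (6.67%, against 2.94%). Flt1 (log2 0.66) and Cdh5 (log2 0.57) were called higher and Egfl7 (log2 -0.46) lower, with calls lost without SNI 19 (adjusted p = 0.0532), without naive 4, naive 5, naive 8, naive 9, SNI 19 or SNI 21 (adjusted p from 0.0614 to 0.161) and without naive 4, naive 5, naive 8, naive 9, SNI 13 or SNI 19 (adjusted p from 0.0703 to 0.142). The pericyte gene Cspg4 (log2 0.99) lost its call without SNI 19 (adjusted p = 0.0686). Of 32 cell cycle genes 1 was called higher and 1 lower (3.1% each, against 7.17% and 2.94% of all genes). The former, Prc1 (log2 0.85), lost its call without SNI 19 (adjusted p = 0.056). The latter, Mybl2 (log2 -1.34), lost its call without naive 8, naive 9, SNI 19 or SNI 21 (adjusted p from 0.0843 to 0.186).

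Genes of energy metabolism and the ribosome were lower as groups by small amounts. Nuclear genes of oxidative phosphorylation had a median log2 fold change of -0.46 over 80 tested, against -0.02 over all genes, and summed to 9491, 9878, 9983 and 10253 CPM in naive 4, 5, 8 and 9 and to 8118, 7561 and 8079 CPM in SNI 13, 19 and 21. All 3 injured sums lay below all 4 naive ones, at 80.0% of the naive mean. The 15-library fit called 2 of the 80 lower (Atp5s, its call lost without naive 5, naive 8, naive 9, SNI 19 or SNI 21 (adjusted p from 0.0933 to 0.188), and Ndufb2, lost without naive 4, naive 5, naive 8, naive 9, SNI 19 or SNI 21 (adjusted p from 0.0732 to 0.197)) and the 7-library fit 59, with 48 to 58 when 1 of the 7 was left out, fewest without SNI 19. Among 77 cytosolic ribosomal protein genes the median was -0.30, the sums were 4094, 4454, 4216 and 4527 CPM and 3625, 3397 and 3641 CPM, and the calls were none on 15 and 33 lower on 7 libraries (16 to 32 with 1 of the 7 left out, fewest without SNI 19). On 7 libraries 73.8% of the oxidative phosphorylation and 42.9% of the ribosomal protein genes tested were thus lower, against 12% of all genes. Ribosomal protein genes have many pseudogenes, with which reads may be shared.

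The 13 mitochondrially encoded protein genes behaved likewise, with a median log2 fold change of -0.36. None was called on 15 and 6 were lower on 7 libraries (46.2%, against 12% of all genes). The share of all counts from mitochondrial genes was 2.98% ± 0.176 (SD, n = 4) in naive and 2.36% ± 0.105 (n = 3) in SNI libraries, again without overlap (exact permutation p = 0.0286, two-sided). The ATP synthase subunit gene Atp5s went from 19.01, 22.4, 24.1 and 23.9 CPM to 17.6, 13.6 and 14.7 CPM (log2 -0.55 ± 0.16), and the succinate dehydrogenase gene Sdhd was at 134, 139.7, 133 and 144 CPM and 104, 93.5 and 102 CPM (log2 -0.46 ± 0.19, edgeR adjusted p = 0.139 on 15 and 0.000725 on 7 libraries). In the control SNI group the same lists were higher rather than lower in the fit on all 15 libraries, with medians of 0.49 (oxidative phosphorylation), 0.54 (ribosomal proteins) and 0.63 (mitochondrially encoded), but this rested on control SNI 23: without it the control medians were -0.19, 0.01 and -0.03.

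**Figure D3:**
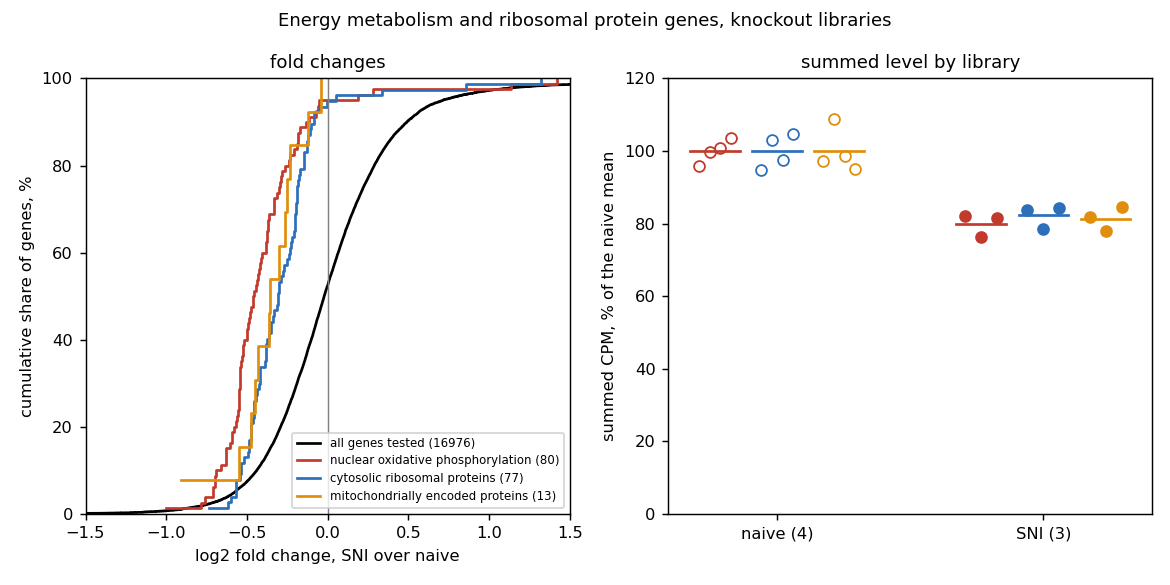
Left, cumulative distribution of the log2 fold change of 3 gene lists and of all genes tested in the knockout comparison (axis limited to 1.5 either way, numbers of genes in parentheses); right, the summed CPM of each list in each library as % of the naive mean, open points naive, filled points SNI, line at the mean. The medians of the 3 lists lie left of that of all genes, and the SNI sums of each list lie below its naive sums, at 80.0%, 82.2% and 81.4% of the naive mean for oxidative phosphorylation, ribosomal and mitochondrially encoded genes.

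Some falls were called in every reduced fit. The naming rule picked such falls only where the groups did not overlap, so neither trait is a separate result for them. Pnpla3, a lipid droplet enzyme, fell from 48.6, 42.8, 62.7 and 53.8 CPM to 24.3, 26.1 and 20.7 CPM, with no overlap (log2 -1.13 ± 0.15, edgeR adjusted p = 0.000169). Chrnb3, a nicotinic receptor subunit, fell from 5.69, 5.16, 7.13 and 6.53 CPM to 2.53, 3.60 and 2.80 CPM (log2 -1.03 ± 0.18, adjusted p = 0.00236). Rgs11, a regulator of G protein signalling, fell from 50.5–64.7 to 31.6–33.7 CPM (log2 -0.81 ± 0.18) and the collagen gene Col11a1 from 62.7–95.99 to 40.6–41.8 CPM (log2 -0.85 ± 0.18), where the 3 injured libraries lay within 1.3 CPM of each other. Ciart, a repressor of the circadian clock, was at 5.90, 3.97, 5.89 and 5.49 CPM and 1.01, 3.22 and 2.401 CPM (log2 -1.22 ± 0.28); the hour of collection is not given in the sources used here. All 5 were among them.

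Non-coding host transcripts were among the stable falls. Mirg, a non-coding RNA that hosts microRNAs of an imprinted cluster, fell from 30.9, 29.7, 35.5 and 32.9 CPM to 18.5, 16.1 and 15.5 CPM, and Mir124a-1hg, host of a neuronal microRNA, from 96.2, 82.1, 108 and 87.6 CPM to 55.99, 53.5 and 47.5 CPM. The groups were separate in both (log2 -0.95 ± 0.17 and -0.84 ± 0.17, edgeR adjusted p = 0.00218 and 0.005). Miat, an abundant long non-coding RNA, was lower (970.2–1243 to 590.3–688 CPM, log2 -0.73) and lost its call without naive 8, SNI 19 or SNI 21 (adjusted p from 0.0538 to 0.0843). The homeobox gene Hoxb6 fell from 11.3–13.5 to 5.94–7.90 CPM (log2 -0.80 ± 0.16, adjusted p = 0.00471), the secreted protein precursor Fndc5 from 31.03–50.9 to 21.4–26.2 CPM (log2 -0.80 ± 0.16) and Bambi, a decoy receptor of BMP and TGF-beta signals, from 12.7–16.3 to 7.71–8.52 CPM (log2 -0.82 ± 0.16).

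Several abundant genes fell. Ldhb, a lactate dehydrogenase subunit, was at 269, 271, 305 and 287 CPM in naive and 171, 179 and 204 CPM in injured libraries (log2 -0.61 ± 0.11, edgeR adjusted p = 0.00233). Ckmt1, mitochondrial creatine kinase, fell from 301–372 to 212–223 CPM (log2 -0.60 ± 0.09, adjusted p = 0.000673) and Fkbp4, a cochaperone of steroid receptors, from 381–409 to 254–268 CPM (log2 -0.58 ± 0.08, adjusted p = 0.000226). Each of these 3 was separate between groups and called in every reduced fit. Nrn1, neuritin, was called lower (log2 -0.58; call lost without naive 5, SNI 19 or SNI 21 (adjusted p from 0.0614 to 0.102)). The largest rise among genes of at least 100 CPM, after Sprr1a, was that of Lars2, mitochondrial leucyl-tRNA synthetase, at 80.8, 172, 145 and 94.4 CPM in naive and 606, 639 and 1084 CPM in SNI libraries (log2 2.66 ± 0.54, adjusted p = 0.00964). Beside it, the mitochondrial ribosomal RNA mt-Rnr2 was at 389, 493, 377 and 466 CPM and 515, 521 and 653 CPM, highest in SNI 21 as Lars2 was, and its part in the Lars2 value was not tested. Rhoq, a small GTPase, rose from 93.99–102 to 245–306 CPM (log2 1.47 ± 0.09, adjusted p = 1.92e-08) and the kinase Tnik from 77.4–85.6 to 178–206 CPM (log2 1.24 ± 0.13, adjusted p = 1.01e-05).

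**Figure D4:**
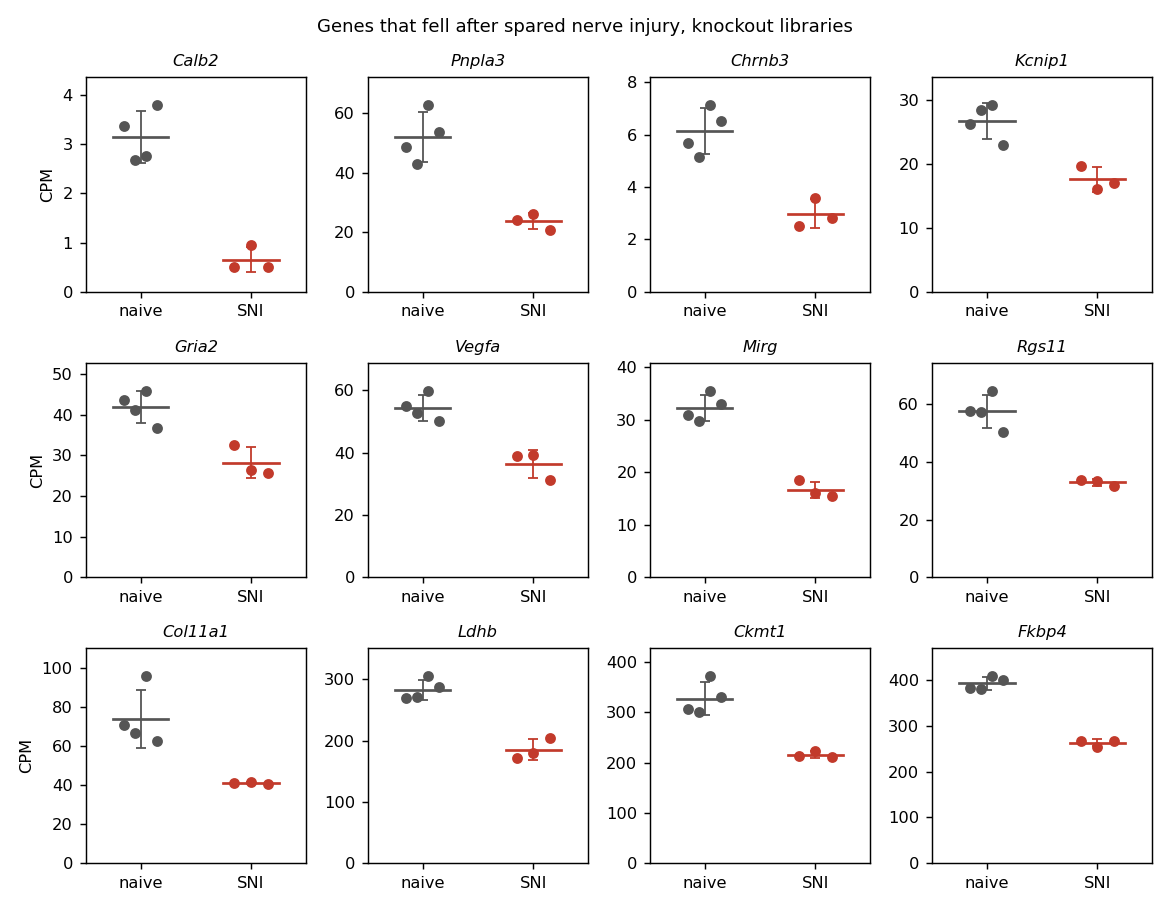
CPM by knockout library for 12 genes that fell (linear axes from 0, 1 point a library, line and bar at the mean and SD). The 3 SNI libraries lie below the 4 naive ones in each panel, from Calb2, at most 0.947 CPM after injury, to Ldhb, Ckmt1 and Fkbp4, whose levels after injury were 171 CPM or more.

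The control comparison shares no library with that of the knockouts and gave fewer calls, 360 genes that rose (2.12%) and 61 that fell (0.359%). Of the genes called in knockout, 274 that rose (22.5%) and 32 that fell (6.41%) were called the same way in control, and none was called the opposite way in the 2 genotypes. The genes that rose in knockout had a median log2 fold change of 0.28 in control, and those that fell one of -0.18, both nearer to 0 than in knockout; since the genes were chosen by their knockout values, that order is partly set by the choice. The difference of the injury effect between genotypes was tested gene by gene, and 0 of 16976 genes (0%) passed in edgeR's test on 15 libraries; 2281 genes had an unadjusted p under 0.05, and the smallest adjusted p was 0.0872. DESeq2 called 12 genes for that difference. Leaving out control SNI 15 raised the edgeR count to 1235 genes and leaving out control SNI 23 gave 1, so that count depended on 1 library of a variable group.

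Side by side, the injury genes rose in both genotypes. Atf3 rose by log2 5.31 in knockout and 4.26 in control, where it went from a mean of 7.86 to 151 CPM, and the difference had an edgeR adjusted p = 0.365. Ecel1 rose by 7.14 and 4.73 (adjusted p of the difference = 0.365), Sema6a by 3.21 and 2.37 (adjusted p = 0.365), Csf1 by 2.06 and 1.43 (adjusted p = 0.365), Tubb6 by 2.26 and 1.57 (adjusted p = 0.365) and Abca1 by 1.84 and 1.17 (adjusted p = 0.365). The size was thus larger in knockout for each of these 6, without passing the adjustment over all genes. Nts rose by 4.37 and 4.35 (adjusted p = 0.989), Fst by 3.04 and 3.02 (adjusted p = 0.984) and Cacna2d1 by 0.97 and 0.88 (adjusted p = 0.763), values closer than their standard errors. Tnfrsf8 rose by 4.04 in knockout and 6.02 in control (adjusted p = 0.416), Trem2 by 1.00 and 1.51 (adjusted p = 0.528).

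Some genes had values of opposite sign or near 0 in control in the 15-library fit. Chodl, a lectin-like membrane protein, had a log2 fold change of -1.33 in knockout, from 1.96–3.14 to 0.758–1.26 CPM (call lost without naive 8, SNI 19 or SNI 21 (adjusted p from 0.0549 to 0.11)), and had 0.25 in control (adjusted p of the difference = 0.365). Scgn, the calcium sensor secretagogin, had log2 -1.79 and 0.24 (adjusted p = 0.365; call lost without naive 4, naive 5, SNI 13, SNI 19 or SNI 21 (adjusted p from 0.0701 to 0.121)), and Bex1 had -1.18 and 0.12 (adjusted p = 0.365; call lost without SNI 19 or SNI 21 (adjusted p from 0.0602 to 0.0605)). Calca had -0.66 in knockout and 0.01 in control, from a mean of 1303 to 1309.9 CPM (adjusted p = 0.378), and Calcb -0.58 and 0.31 (adjusted p = 0.365). Control SNI 23 moved these control values. Calca was at 879, 924 and 2126 CPM in control SNI 15, 18 and 23, against 1130.0–1393 CPM in control naive libraries, so SNI 15 and 18 lay below the naive range and SNI 23 above it. Without SNI 23 the control log2 fold change of Calca was -0.53 (edgeR adjusted p = 0.00407), lower as in knockout. Those of Calcb and Chodl were then within 0.01 of 0, that of Scgn was -0.26 and that of Bex1 -0.35, the latter pair now below 0. For rises, Il31ra had 1.03 and 0.01 (adjusted p = 0.365), Grik3 1.04 and 0.28 (adjusted p = 0.365) and Slc7a5 1.05 and 0.38 (adjusted p = 0.365). None of these differences passed the adjusted threshold in the 15-library fit.

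**Figure D5:**
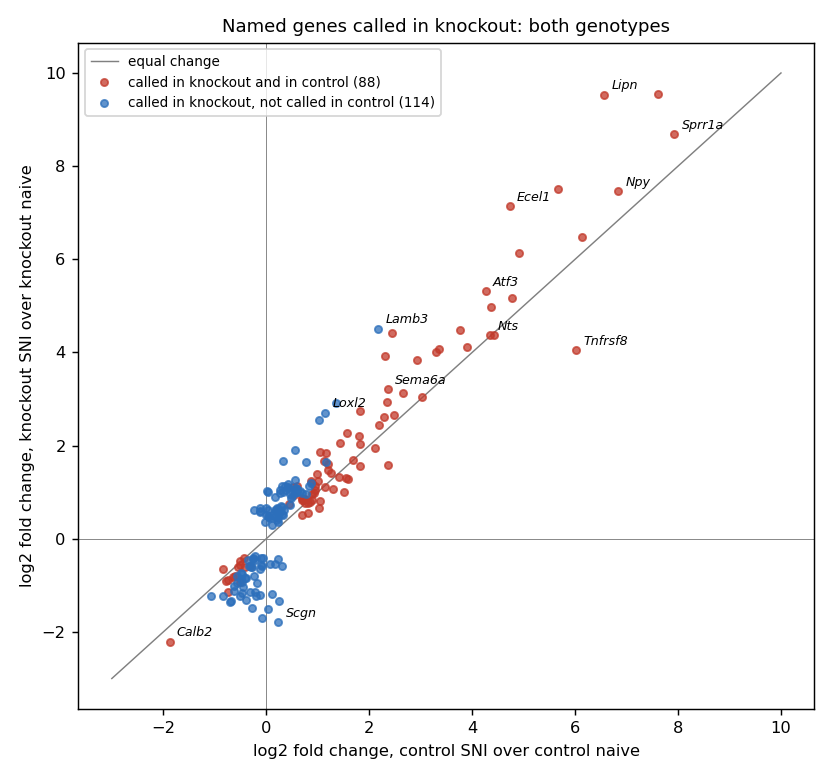
Log2 fold change after injury in knockout (vertical) against control (horizontal) for the 202 genes named by the rule or in the text that were called in knockout; red points were also called in control, blue points were not, and the line marks equal change. Of the genes called higher 123 of 141 lie above the line, and of those called lower 58 of 61 lie below it, for genes chosen by their knockout values.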

How the data were processed

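RNA was extracted with Trizol from lumbar dorsal root ganglia and made into stranded TruSeq mRNA libraries, per the labels. The deposited values are raw counts of reads per gene, 39179 identifiers in 15 libraries, which the authors made from reads aligned to GRCm38 with TopHat2 2.0.4 and counted with HTSeq 0.6.1; Cufflinks, SAMtools and DESeq2 are also named, per the submitters' processing notes. Whether counting used strand is not given in the sources used here. Of the identifiers 37607 had a symbol, and those without held 0.523% of counts.

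The counts were fitted with edgeR 4.0.16 (R 4.3.3; TMM scaling, filterByExpr, robust quasi-likelihood F test) in a model of 4 group means (knockout or control, naive or SNI) without covariates. Injury in knockout, injury in control and their difference were contrasts of it, with Benjamini-Hochberg adjustment over 16976 genes; 10334 genes with a count were left out by the filter. Log2 fold changes are SNI against naive, given with ± SE; CPM are counts per 1000000 of the library total times its TMM factor. Alternatives were RLE size factors, no filter, DESeq2 1.42.0, limma-voom 3.58.1, other sets of libraries and a threshold of 0.01; a fit with the Xist pattern as a term, the reduced 7-library fits and those without control SNI 15 or 18 were chosen after seeing the data. Sums over lists were compared by exact two-sided permutation tests, where 4 against 3 libraries cannot go below 0.0286. On simulated counts for the knockout comparison over 16976 genes, 34.3%, 73.1% and 93.9% of genes changed 1.5-, 2- and 4-fold were recovered, with 5 false among 139 calls.

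The members and gene lists were chosen with earlier results of these data known. Genes were named by a rule: the 20 largest rises and falls among called genes of at least 1 CPM without overlap, the 20 largest falls called in every reduced fit, up to 6 members of each list by p, the 10 largest rises and falls of at least 100 CPM, and a few genes of the study's theme. Genes named outside it, among them Bdnf, Oprm1, Aif1, Tyrobp, Vegfa, Hspa5 and Mbp, were chosen after their values were seen. The main edgeR p-values set each change against a spread between animals that was estimated over all libraries, controls included. That spread is not the one between the knockout animals alone. A few list members are counted in their lists and not reported here by name.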

Additional observations from a re-analysis of the deposited data

Results flagged for a closer look

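Of 204 values checked in the 4 naive knockout libraries, 13 had 1 library far from the other 3, where chance gives about 1 in 20. In naive 8, Arc was at 3.42 CPM, Fabp4 at 5.42 CPM and Npy at 0.760 CPM, each above the others, and Bsn at 117 CPM, below them. In naive 4, C1qa at 27.2 CPM, Tyrobp at 21.04 CPM and Kcnq3 at 82.4 CPM stood apart. Naive 5 stood apart in Igf1 at 9.42 CPM, Ncam1 at 114.9 CPM, Nrn1 at 494 CPM, Oprl1 at 27.3 CPM and Sectm1b at 0.991 CPM. Naive 9 had the lowest Cacna2d1, 268 CPM.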

How the results depend on the processing

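No paired analysis was possible because the groups share no replicate number. The number of genes called in knockout, 1717, kept its majority of rises under every alternative run, and its size depended on the libraries. On the 7 knockout libraries it was 4438 (2467 higher, 1971 lower), without control SNI 23 4409 (2459, 1950), and with the Xist pattern as a term on 7 libraries 4189 (2346, 1843). At an adjusted p under 0.01 it was 569 (480, 89), and without the low-count filter 332 genes were lower. RLE size factors gave 1337 and 435, DESeq2 1633 and 617, and limma-voom 1266 and 536. Leaving out 1 library gave 587 to 4409 genes in all, 480 to 2459 higher and 107 to 1950 lower, lowest without SNI 19 and highest without control SNI 23. On the 7 libraries the ranges were 2756 to 4912, 1660 to 2653 and 1096 to 2259, lowest without SNI 19 and highest without SNI 13. Fewer samples enter these fits. The difference between genotypes gave 0 genes, 12 with DESeq2, 1 without the filter, 2 with the Xist term, and from 0 to 1235 (without control SNI 15) on leaving out 1 library; the cause was not tested. The control comparison gave 421 genes, 673 with DESeq2, and 283 to 1506 on leaving out 1 control SNI library (1506 without SNI 15, 796 without SNI 23). Of the named genes called, 172 were compared with each alternative on 15 libraries and none reversed; 170 remained with RLE, 156 without the filter, 167 with limma-voom and 102 without SNI 19. DESeq2 kept 170 of 171, and the 7-library fit 167 of 171. Changes near 1.5-fold were mostly below detection in the simulation. It changed 67 genes by that fold, and in all far fewer genes than were called in the data. It also gave every group the same spread per gene, whereas control SNI was the most variable group in the data. Its recovery therefore need not hold for the data.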

Other observations

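The libraries without Xist signal differed in the level of Y-linked transcripts. Ddx3y, Uty, Eif2s3y and Kdm5d summed to 360 CPM in knockout naive 4 and 348 CPM in knockout naive 5, against 150 to 187 CPM in the other libraries of that pattern, knockout SNI 13 and 21 among them. Ube2c, a cell cycle gene, was at 18.7, 3.07, 24.4 and 6.92 CPM in naive 4, 5, 8 and 9 and at 67.0, 14.8 and 80.1 CPM in SNI 13, 19 and 21. Like the summed muscle markers it was lowest in naive 5 and 9 and highest in SNI 13 and 21. Wnt1, whose promoter drives the Cre, had no count in any naive knockout and 0, 0.379 and 0.200 CPM in the injured ones.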
